A study of Mus musculus with 2 samples.

Results

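The fibroblast-rich stroma of mouse pancreatic tumors was described from 421 capture spots of 5772 in 2 spatial transcriptomics libraries. A spot is a small barcoded area of a tissue section that takes up the RNA of several neighbouring cells, so each value below belongs to a small region and not to a cell. Reads were counted as unique molecular identifiers (UMIs), 1 for each captured molecule, and a level is given as CPM, the usual scaling of the UMIs of a gene to 1 common total of UMIs. Spots were eligible when they held at least 10000 UMIs and under 2% of their UMIs from 5 acinar genes (Cpa1, Ctrb1, Prss2, Pnlip and Cela2a), which left 4206 spots. Within each library the eligible spots were ranked by the summed level of 6 fibroblast markers, Col1a1, Col1a2, Dcn, Lum, Pdgfra and Postn. The top 10% were taken as stroma spots, and the lowest 50% of the same library, 2102 spots in all, served as low spots. Stroma spots numbered 135 of 1349 eligible and 2220 measured spots in the library labelled KPC-shZEB1, against 286 of 2857 eligible and 3552 measured spots in the library labelled KPC-shV. The limits cut the libraries unequally. Of the former library 858 spots were left out by the acinar limit and 13 by the UMI limit, and of the latter 305 and 390.

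Both libraries came from orthotopic allograft tumors, in which mouse KPC pancreatic cancer cells, derived from a genetically engineered mouse model with a Pdx1-driven Cre, had been injected into the mouse pancreas. One group received KPC-shZEB1 cells, which carry a short hairpin RNA against Zeb1, and the other received KPC-shV cells with the vector control. Zeb1 encodes a transcription factor of epithelial-mesenchymal transition, and the comparison asks what its knockdown in the cancer cells does to the tumor and its surroundings. The hairpin sits in the injected cells only, so the fibroblasts of the stroma belong to the host and do not carry it. The study's text gives immunocompetent mice treated with gemcitabine for these tissues, the labels name no drug, and the strain of young mice is not stated for this assay. The protocol gives 2 tumors for each group without saying which of them each library covers. With 1 library per group there is no replicate, so no test was possible between the libraries, and the 95% intervals below cover counting error only. Where values stand in pairs without a label, KPC-shZEB1 comes first, and "against" sets stroma spots before low spots of the same library.

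Pancreatic ductal tumors are known for desmoplasia, a dense stroma of collagen-rich matrix laid down by cancer-associated fibroblasts (CAFs), many of which arise from pancreatic stellate cells and other resident mesenchymal cells. CAFs are commonly grouped into myofibroblastic CAFs, which are contractile, express alpha smooth muscle actin and respond to TGF-beta, and inflammatory CAFs, which secrete cytokines, chemokines and complement. Antigen-presenting CAFs, which carry MHC class II, have been described as a further group.

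Sequencing was deep in both libraries. In total 140493626 UMIs were counted for KPC-shZEB1 and 172059528 for KPC-shV, as the libraries are labelled. Stroma spots of the former held between 11240 and 82750 UMIs with a median of 45011, and those of the latter held between 10121 and 70594 with a median of 22856. Low spots were deeper and alike, with medians of 62040 and 61563 UMIs, and 9 of 135 against 122 of 286 stroma spots lay under 20000 UMIs. Stroma spots of the library labelled KPC-shV were thus the shallowest per spot, and levels are relative to the UMIs of each spot group. After random thinning of every spot to 10000 UMIs, the median number of genes with a UMI was 4176 in stroma against 4235 in low spots of the library labelled KPC-shZEB1, and 4278 against 4270 in the other. The libraries shared 1718 barcodes, which name slide positions and not cells, and 1 barcode was a stroma spot in both.

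Zeb1 itself, the gene that the hairpin targets, was measured first. Its level in stroma spots was 27.2 CPM with a counting interval from 23.3 to 31.6 for KPC-shZEB1, and 21.3 CPM, from 18.2 to 24.8, for KPC-shV. In low spots, which hold most of the epithelial signal, the values were 12.7 and 8.83 CPM. Thus the gene targeted by the hairpin was not lower in the library labelled as the knockdown, in either spot group. A spot mixes injected and host cells, and host cells do not carry the hairpin. This level can therefore neither bear out nor contradict the labels, and every direction between libraries given here rests on them. The study reports more T cells and fewer neutrophils after the knockdown. T cell markers gave log2 ratios of KPC-shZEB1 over KPC-shV of 1.12 in stroma and 2.99 in low spots. Neutrophil markers gave -0.41 and -1.48. These 2 lists ran the way the labels say. The study's report rests in part on its spatial data under the same labels, so this is no independent check. Whether the labels are correct was not tested. The log2 ratio of the 2 libraries for Zeb1 was 0.35 (0.03 to 0.67) in stroma spots and lay between 0.04 and 0.52 over the alternative settings. Zeb1 was more abundant in stroma than in low spots of both libraries, with log2 ratios of 1.10 and 1.27, and fibroblasts are known to express it.

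The 6 markers that chose the spots are given as a description. Their summed level in the stroma spots of the library labelled KPC-shZEB1 was lowest at 12924, had a median of 17184 and reached 52340.1 CPM. In the library labelled KPC-shV the lowest, median and highest values were 16346, 23346 and 73628 CPM. The last spot inside and the first spot outside the limit were at 12924 and 12871 CPM in the former and at 16346 and 16312 CPM in the latter, so the limit falls on a slope with no gap in it. Low spots had medians of 948 and 763 CPM.

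**Figure D1:**
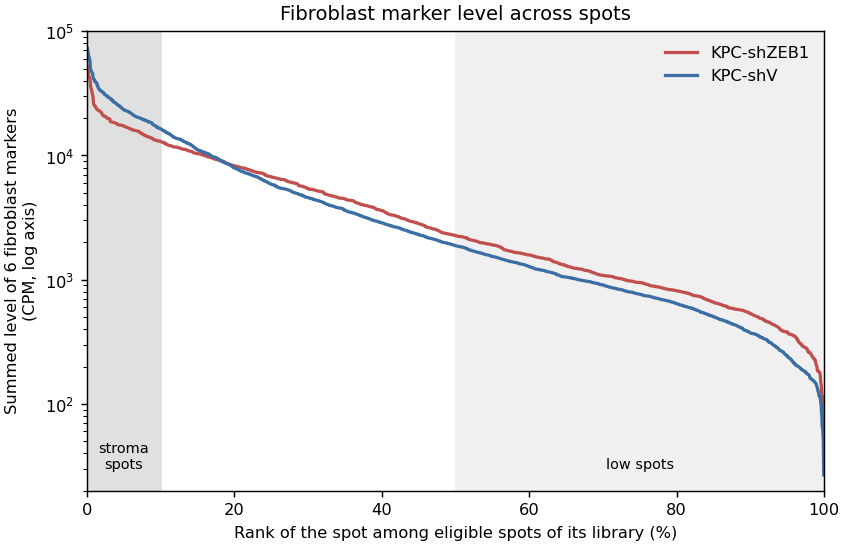
The summed level of the 6 fibroblast markers in each eligible spot (CPM, log axis) is drawn against the rank of the spot within its library (%), 1 line per library, with the stroma and low spots shaded. Both lines fall without a step through the limit, which lies at 12924 CPM in KPC-shZEB1 and 16346 CPM in KPC-shV.

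Col1a1 and Col1a2 encode the chains of type I collagen, the main fibre of the stroma, and gave most of the marker UMIs. Col1a1 (chr11:94936224-94953042, GRCm38) made up 56.2% and 49.7% of the marker UMIs of the stroma spots in the libraries labelled KPC-shZEB1 and KPC-shV. Its level per stroma spot ranged from 4626 through a median of 9370 to 31223 CPM in the former and from 5195 through 11370 to 31325 CPM in the latter, and every stroma spot lay above every low spot. Col1a2 (chr6:4504814-4541544) ranged from 2626 through 5958 to 18162 CPM and from 6144 through 11201 to 42206 CPM, again without overlap with the low spots. The other 4 markers overlapped with the low spots, so that the ranking was in effect one by type I collagen.

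Dcn and Lum encode decorin and lumican, small proteoglycans that bind collagen fibrils and are made by fibroblasts. Dcn (chr10:97479609-97518143) had a level of 1092 CPM over the stroma spots of the library labelled KPC-shZEB1 and 626 CPM over those of the library labelled KPC-shV, with 22.5 and 11.7 CPM in low spots. It exceeded all low spots in 112 of 135 and 167 of 286 stroma spots. Lum (chr10:97565128-97572703), its neighbour on the chromosome, was at 569 and 285 CPM in stroma and 22.8 and 10.3 CPM in low spots. Both proteoglycan genes therefore had their higher stroma level in the library labelled KPC-shZEB1, while Col1a2 had it in the other library.

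Pdgfra, the receptor for platelet-derived growth factor on fibroblasts (chr5:75152292-75198215), stood at 152 and 129.9 CPM in stroma against 18.8 and 5.36 CPM in low spots. Postn (chr3:54361109-54391037), which encodes the matrix protein periostin, stood at 71.4 and 110 CPM in stroma and at 11.5 and 18.0 CPM in low spots. When each marker was left out of the choice of spots and the other 5 were used, its stroma level was still above its low level: the log2 ratio for Dcn was 5.32 and 5.69, that for Lum 4.56 and 4.73, and that for Col1a2 4.26 and 4.94. For Col1a1 the values were 3.62 and 4.56, for Pdgfra 2.99 and 4.59, and for Postn 2.54 and 2.56. Leaving a marker out kept most of the chosen spots, from 122 to 134 of 135 and from 262 to 286 of 286. These ratios therefore describe nearly the same spots and are no independent support for the label of a fibroblast-rich region.

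The markers did not vary together in the same way in both libraries. Over single stroma spots, Spearman's correlation of Dcn with Lum was 0.70 (n = 135 spots) and 0.67 (n = 286), and that of Col1a1 with Col1a2 was 0.72 and 0.51. Col1a1 and Dcn ran in opposite directions in the library labelled KPC-shZEB1, at -0.35, and together in the other, at 0.54. Postn was weakly related to Dcn in both, at -0.11 and 0.04. These are descriptions only, since the spots of 1 library are neighbours on 1 section, the values of a spot share 1 total, and the spots were chosen on these genes.

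Promoter sequences are shown for genes of the fibrillar collagen and periostin matrix, because these genes were high in the same spots. Of the 6 markers 3 had an entry in the RefSeq promoter table (GRCm38.p6), with Col3a1 added as the collagen with the next account below. Each sequence holds the 250 bases before an annotated start on the plus strand, 5′ to 3′, and capitals mark a match to CCAAT or TATAAA on either strand. The windows are chr6:4505368-4505617 for Col1a2, which lies inside the gene's GENCODE span, chr1:45311288-45311537 for Col3a1 and chr3:54360857-54361106 for the second of 2 Postn starts.
Col1a2: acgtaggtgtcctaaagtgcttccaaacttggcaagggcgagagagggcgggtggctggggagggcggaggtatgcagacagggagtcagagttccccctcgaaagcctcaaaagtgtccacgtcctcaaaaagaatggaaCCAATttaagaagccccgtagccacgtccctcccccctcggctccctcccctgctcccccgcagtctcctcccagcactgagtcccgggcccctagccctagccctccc
Col3a1: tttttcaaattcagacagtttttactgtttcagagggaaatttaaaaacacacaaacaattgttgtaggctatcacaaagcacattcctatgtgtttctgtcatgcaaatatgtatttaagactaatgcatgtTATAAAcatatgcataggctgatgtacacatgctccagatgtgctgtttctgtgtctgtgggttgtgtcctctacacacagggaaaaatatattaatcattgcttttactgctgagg
Postn: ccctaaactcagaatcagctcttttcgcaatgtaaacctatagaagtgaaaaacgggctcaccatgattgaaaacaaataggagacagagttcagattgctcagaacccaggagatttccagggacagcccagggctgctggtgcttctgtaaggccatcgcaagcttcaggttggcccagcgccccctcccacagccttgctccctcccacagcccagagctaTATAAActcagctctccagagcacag
The CCAAT match of Col1a2 starts at -109 from its annotated start, the TATAAA match of Col3a1 at -117 and that of Postn at -26. CCAAT occurs in 11120 of 32851 promoter windows of this length (33.8%) and TATAAA in 4063 (12.4%). The Pdgfra window and the other Postn window held neither string, which says only that these letters are not in those windows. A match is a description of the sequence and not a binding site.

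Stroma spots differed from low spots across much of the transcriptome. Among 10153 genes with at least 10 CPM in the higher spot group of each library, 1266 (12.5%) were at least 2-fold higher in stroma spots in both libraries and 931 (9.17%) at least 2-fold lower. The spots were chosen on counts from the same spots, so these counts describe the contrast and carry no test. Of the 1384 genes that were higher in the library labelled KPC-shZEB1, 91.5% were higher in both, as were 73.2% of the 1730 that were higher in the other library. For lower genes the shares were 75.4% of 1234 and 62.3% of 1495. Each library thus gave mostly the same set of higher genes, more so than of lower ones. The median log2 ratio over all genes compared was -0.19 and -0.17, which sets the level against which the lists below are read. Their counts of called genes stand beside the 12.5% higher and 9.17% lower over all genes compared.

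The 15 genes with the highest ratios in both libraries included genes of matrix and secreted proteins and 5 antibody genes. Abi3bp, which encodes an extracellular matrix protein, was at 431 against 3.64 CPM under the label KPC-shZEB1 and at 189 against 1.935 CPM in the other, and it exceeded all low spots in 107 of 135 and 181 of 286 stroma spots. Sfrp1, a secreted modulator of Wnt signalling, was at 1190.3 and 1101 CPM in stroma and 21.6 and 10.4 CPM in low spots, and 126 of 135 and 237 of 286 stroma spots exceeded all low spots. Its relative Sfrp2 was at 119 and 104 CPM in stroma and 1.95 and 1.38 CPM in low spots. Serpina3n, a secreted protease inhibitor, was at 494 and 463 CPM in stroma and 8.295 and 7.366 CPM in low spots. The cartilage matrix gene Cilp was at 445 and 116 CPM, and Fmod, which encodes the proteoglycan fibromodulin, at 93.2 and 71.4 CPM. Pi16, a marker of adventitial fibroblasts, was at 165 and 92.0 CPM, with 1.69 and 1.44 CPM in low spots. Saa3, an acute-phase protein gene, was at 467 and 406 CPM, the peptidase gene Dpep1 at 103 and 102 CPM, and Fxyd6, a regulator of the sodium pump, at 93.95 and 64.6 CPM. Of these genes, Cilp and Abi3bp differed by more than 2-fold between the stroma of the libraries, and both were higher in the one labelled KPC-shZEB1. The antibody genes Ighg2b, Igkc, Ighm, Ighj1 and Igha made up the rest of the 15 and are described below with the plasma cell markers.

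The 10 genes with the lowest ratios in both libraries included genes of mucosal and squamous epithelium. Lypd8, a secreted protein of gut epithelium, was at 9.70 against 504.2 CPM under the label KPC-shZEB1 and at 4.34 against 129 CPM in the other. Muc13, Muc4 and Muc1, which encode membrane mucins, were at 13.8, 13.7 and 17.3 CPM in the stroma of the former, and at 4.09, 4.73 and 11.8 CPM in the latter. Their low-spot levels were 268, 160 and 164 CPM, and 50.8, 131 and 123 CPM. Ivl, which encodes involucrin of the squamous cornified envelope, and Cxcl3, a neutrophil-attracting chemokine, had log2 ratios of -5.11 and -3.95 in the former and -4.14 and -3.82 in the latter. No stroma spot exceeded the highest low spot for any of the 10, which also include Tmem45b, Tm4sf20, Gsta4 and Sgpp2.

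**Figure D2:**
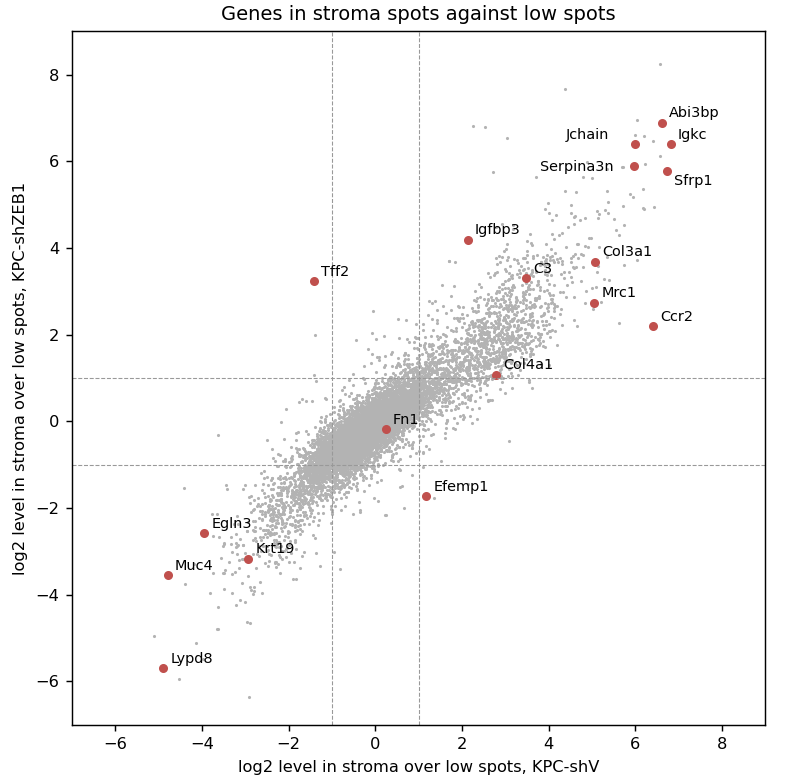
Each point is a gene, with its log2 ratio of stroma over low spots in KPC-shV on the x axis and in KPC-shZEB1 on the y axis, and dashed lines mark a 2-fold difference. Points run along the diagonal, from Lypd8 at the lower left to Abi3bp and Igkc at the upper right, while Tff2 and Efemp1 lie on opposite sides of 0 in the 2 libraries.

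Fibrillar collagens other than type I were higher in stroma spots. All 5 of the 7 measured genes that reached the level for comparison were higher in both libraries, with medians of 2.94 and 3.98 against -0.19 and -0.17 over all genes. Col3a1 (chr1:45311538-45349706), the partner of type I collagen in reticular fibres, ranged from 6552 through 12018 to 25669.5 CPM over the stroma spots of the library labelled KPC-shZEB1. In the other library it ranged from 3889 through 13545 to 53859.5 CPM. In both, every stroma spot lay above every low spot, whose highest values were 6379 and 3693 CPM, although Col3a1 took no part in the choice. Col5a1, Col5a2 and Col5a3, chains of the type V collagen that starts fibrils, had log2 ratios of 2.56, 2.94 and 1.55 in the former library and 3.98, 3.55 and 2.19 in the latter. Of the stroma spots, 69.6% and 89.2% were also among the top 10% of eligible spots by this list.

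Nonfibrillar interstitial collagens were higher for 7 of 9 genes compared. Col12a1, a collagen on the surface of fibrils, was at 1162 against 67.5 CPM and 722 against 59.8 CPM, and the chains of type VI collagen, Col6a1, Col6a2 and Col6a3, had log2 ratios between 1.48 and 2.94. Proteoglycans of the small leucine-rich family and Vcan were higher for 7 of 7, with medians of 3.68 and 4.58. Bgn, which encodes biglycan, was at 1784 against 139 CPM and at 1465 against 103 CPM. Prelp and Podn, further members, had log2 ratios of 4.66 and 4.70 under the label KPC-shZEB1 and 5.51 and 4.59 in the other. Elastic fibre genes were higher for 9 of 10. Eln, which encodes elastin, was at 269 against 13.6 CPM and 166 against 8.75 CPM, and Fbn1, which encodes fibrillin, at 335 against 53.5 CPM and 391 against 28.25 CPM. Fbln2 was the member that did not reach 2-fold, at 908 against 658 CPM and 1572 against 1215 CPM.

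Adhesive and matricellular proteins were mixed, beside 12.5% of all genes compared that were higher. Higher were 8 of 13, led by Tnxb and Thbs2, with Sparc, a collagen-binding protein, at 4023 against 499 CPM and 4218.5 against 376 CPM. Fn1, which encodes fibronectin, did not differ by 2-fold, at 1605 against 1816 CPM and 2869.7 against 2436 CPM. Thbs1, which encodes thrombospondin and can activate TGF-beta, was at 839.5 against 626 CPM and 1831 against 1104 CPM. Neither gene reached 2-fold in either direction in these libraries.

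Basement membrane genes gave calls in both directions, beside 12.5% of all genes compared that were higher and 9.17% that were lower. Col4a1 and Col4a2, the chains of type IV collagen, and the laminin chains Lama2 and Lama4 of mesenchyme and vessels were higher, 4 of 11 compared. Lama5, a laminin chain of epithelial basement membranes, was lower, at 49.1 against 206 CPM and 62.7 against 324 CPM. It was the 1 lower gene of 11, near the share over all genes, so lower calls give no result for the list. The summed level of the list was 1910.3 against 1259.8 CPM under the label KPC-shZEB1 and 4004 against 1465 CPM in the other.

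Many genes that process, crosslink or degrade matrix were higher as well, beside 12.5% of all genes compared. Of 17 genes of collagen processing 10 were higher, among them the crosslinking oxidases Lox and Loxl1, with log2 ratios of 3.64 and 3.67 under the label KPC-shZEB1 and 3.83 and 4.21 in the other, the collagen chaperone Serpinh1 (2.36 and 2.99) and Adamts2, which removes a procollagen propeptide (3.99 and 4.04). P4ha1 and P4ha2, the prolyl hydroxylase subunits that stabilise collagen and are known to respond to hypoxia, stayed within 2-fold, between -0.66 and 0.13. Of 13 proteases and inhibitors 10 were higher. Mmp2, a gelatinase of fibroblasts, was at 616 against 46.5 CPM and 554 against 32.5 CPM, and Timp3, an inhibitor bound to matrix, at 1794 against 170.4 CPM and 1373 against 115 CPM. Mmp9 and Mmp13 did not reach 2-fold in both libraries, at 49.9 against 51.5 CPM and 55.6 against 39.95 CPM for Mmp9.

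Fibroblast states were read from lists of markers, which are described by counts and are no cell census. These counts stand beside 12.5% of all genes compared that were higher and 9.17% that were lower. Higher were 5 of 10 myofibroblastic genes. Acta2, the smooth muscle actin of contractile fibroblasts, was at 393 against 140 CPM and 685 against 93.9 CPM, and Tagln, which encodes an actin-binding protein, had log2 ratios of 2.99 and 3.07. The tropomyosins Tpm1 and Tpm2 and the calponin Cnn2 stayed within 2-fold. Igfbp3, a binding protein for insulin-like growth factors that TGF-beta induces, had the most UMIs of the list in both libraries, at 3582 against 197 CPM and 1515 against 346 CPM. Lrrc15, a gene of TGF-beta-driven myofibroblasts, was found in 20.7% and 8.04% of stroma spots thinned to 10000 UMIs (35.6% and 21% unthinned) and in 6.53% and 4.34% of low spots.

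Inflammatory markers were higher for 3 of 7 compared and lower for 1, beside 12.5% and 9.17% of all genes compared. Cxcl12, a chemokine that holds T cells and progenitors in stroma, was at 119 against 4.36 CPM and 106 against 2.97 CPM. C3, the central complement protein, ranged from 145.5 through 3937.5 to 12455 CPM over the stroma spots of the library labelled KPC-shZEB1 and from 54.7 through 1337 to 8905 CPM over those of the other. The low-spot medians of C3 were 347 and 81.1 CPM. Clec3b had log2 ratios of 4.81 and 4.0. Cxcl1, a neutrophil chemokine, was lower, at 9.54 against 45.1 CPM and 24.9 against 129 CPM. Il6, a defining cytokine of these cells, stayed under the level for comparison, with a UMI in 7.41% and 10.8% of stroma spots thinned to 10000 UMIs (30.4% and 24.5% unthinned), beside 1.48% and 1.19% of low spots.

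Of the antigen-presenting list, Saa3 and Slpi were higher in both libraries. H2-Aa, H2-Ab1 and Cd74, the MHC class II genes, were within 2-fold in the library labelled KPC-shZEB1 (log2 ratios of 0.84, 0.95 and 0.84) and above it in the other (2.23, 2.55 and 2.58). These genes are made by macrophages, dendritic cells and B cells too, and members of the H2 family are similar in sequence. Adventitial genes were higher for 5 of 8 and summed to 902 against 309 CPM and 735 against 103 CPM. Dpp4, a surface peptidase of these cells, had ratios of 2.61 and 4.13, and Cd34 had 2.80 and 2.82.

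Single genes made up much of the summed myofibroblastic and inflammatory lists. In the stroma of the library labelled KPC-shZEB1, Igfbp3 gave 3582 of 5984 CPM of the former and C3 gave 4627 of 5106 CPM of the latter, against 1515 of 5032 CPM and 1637 of 2040.2 CPM in the other library. The correlations were not recomputed without these genes. Over 135 stroma spots of the library labelled KPC-shZEB1, Spearman's correlation of the summed lists was -0.41 (-0.38 after thinning to 10000 UMIs). Over 286 spots of the other it was -0.04 (-0.05). The marker sum ran with the myofibroblastic list in the former (0.46) and not in the latter (-0.05), and with the inflammatory list in the latter (0.52) and not in the former (0.04). With other fibrillar collagens the marker sum gave 0.47 and 0.82. These correlations share sections, totals and, for the marker sum, the choice of spots, and no p is given. By overlap, 38.5% and 40.6% of stroma spots were among the top 10% of eligible spots by the myofibroblastic list, and 54.8% and 63.3% by the inflammatory list.

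Signals to and from fibroblasts were read from lists in the same way, beside 12.5% of all genes compared that were higher and 9.17% that were lower. Receptors of TGF-beta were higher for 4 of 5 (Tgfbr3, Eng, Acvrl1 and Tgfbr2), with Tgfbr2 at 477.5 against 112 CPM and 388 against 107 CPM. Endothelial genes were also higher in these spots, for 8 of 9, and which cells gave the receptor RNA was not tested. The ligands of TGF-beta and their binding proteins gave 2 higher (Ltbp2 and Tgfb2) and 1 lower (Ltbp1) of 7. Tgfb1 itself had log2 ratios of 0.33 and 0.73. Of 6 TGF-beta targets 2 were higher, Tgfbi and Ltbp2. Ccn2, a growth factor of fibrosis, had ratios of 1.94 and 0.91. The summed log2 ratios were 1.90 and 1.96 for the receptors and 1.0 and 0.91 for the targets, and the difference between these lists was not tested.

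Pdgfrb, the receptor of mural cells and stellate cells, was at 129.6 against 37.1 CPM and 209 against 21.1 CPM, and Pdgfd was higher too, 2 of 5 genes of this pathway, whereas the ligands Pdgfa, Pdgfb and Pdgfc were within 2-fold or, for Pdgfa in the library labelled KPC-shV, lower (-1.23). Of 7 hedgehog genes only Ptch1 and Smo reached the level for comparison, and neither differed by 2-fold. Its transcriptional output Gli1 was at 9.06 against 2.55 CPM and 2.43 against 1.13 CPM. Growth factors made by fibroblasts were higher for 4 of 5, with Igf1 at 136 against 9.27 CPM and 118 against 6.72 CPM and Gas6, the ligand of TAM receptors, at 1323 against 288 CPM and 989.8 against 108 CPM. Matrix receptors, which many cells carry, were higher for 2 of 12, Mrc2 and the collagen integrin Itga11, and lower for Itga2, an integrin of epithelium. Over all genes compared 12.5% were higher and 9.17% lower, so these few calls give no result for the list.

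Complement genes were higher for 5 of 5. Serping1, the inhibitor of the first component, was at 1602 against 115 CPM and 1173 against 80.8 CPM. Chemokines were higher for 4 of 8 and lower for 2. Ccl8 and Ccl7, which attract monocytes, and Ccl11, which attracts eosinophils, had log2 ratios of 2.76, 2.0 and 2.73 under the label KPC-shZEB1 and 5.21, 3.03 and 2.77 in the other. Cxcl5, which attracts neutrophils, was lower, at 38.8 against 247 CPM and 67.6 against 684.5 CPM. Cxcl9, an interferon-induced chemokine for T cells, gave -2.17 and 0.22.

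Markers of other cells moved with the stroma spots, beside 12.5% of all genes compared that were higher. Endothelial genes were higher for 8 of 9, with a summed level of 659 against 117 CPM and 784 against 132 CPM and Plvap, a gene of fenestrated endothelium, with the most UMIs. Pericyte and smooth muscle genes were higher for 6 of 8 compared, summed to 386 against 106 CPM and 715 against 127 CPM, with Pdgfrb first. Macrophage genes were higher for 8 of 8, summed to 5354 against 1689.6 CPM and 6769 against 761 CPM, with the complement gene C1qa first. Mrc1, the mannose receptor of tissue macrophages, had log2 ratios of 2.73 and 5.05. In a bulk region such as a spot, fewer cells of a type and less RNA per cell cannot be told apart.

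Lymphoid markers were also above their low-spot level, beside 12.5% of all genes compared that were higher. Counts that rest on 1 or 2 genes give no result for a list. T cell genes were higher for 3 of 5, summed to 265 against 116 CPM and 122 against 14.7 CPM with Trbc2 first, and B cell genes for 2 of 2, summed to 136 against 9.62 CPM and 46.1 against 7.71 CPM with Cd79b first. Plasma cell genes were at 981 against 14.7 CPM and 62.6 against 2.33 CPM, and Jchain, the joining chain of secreted antibody, was the 1 member compared. Dendritic cell genes were higher for 1 of 2 (Ccr7), summed to 69.0 against 31.8 CPM and 93.3 against 17.8 CPM, and Itgax had the most UMIs in the library labelled KPC-shV. Neutrophil genes were higher for 0 of 5, summed to 126 against 140.5 CPM and 168 against 393 CPM with Csf3r first. Of mast cell genes only Kit reached the level and was higher in both libraries, and the sums were 29.6 against 29.7 CPM and 36.5 against 13.0 CPM, with log2 ratios of -1.78 and -0.82 without Kit.

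Epithelial genes, which mark tumor cells and ducts, were lower for 6 of 6. Krt19 was at 179 against 1613 CPM and 144.5 against 1100.1 CPM, and no stroma spot exceeded the highest low spot. The list summed to 1143 against 8086 CPM and 1590.1 against 7599.6 CPM, with Krt7 first, so that epithelial RNA was reduced and not absent in stroma spots. Transcription factors of epithelial-mesenchymal transition, Zeb1 among them, stood with the fibroblast genes: 5 of 6 were higher, with sums of 384 against 91.0 CPM and 483 against 75.1 CPM, and Prrx1, a mesenchymal homeobox gene, had log2 ratios of 3.28 and 3.44. Mesothelial Msln was lower, at 48.2 against 396 CPM and 98.2 against 254 CPM, while Wt1 was higher (3.84 and 3.73), and the list summed to 73.3 against 401 CPM and 133 against 259 CPM.

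RNA of normal pancreas was present in spite of the acinar limit, which used 5 of the 9 acinar genes. Acinar genes were higher for 7 of 7 compared, summed to 3272 against 887 CPM and 1281 against 102 CPM, with the zymogen gene Ctrb1 first. They were unevenly spread, since 18 of 135 and 10 of 286 stroma spots held 50% of their UMIs. Islet genes were higher for 5 of 5, summed to 354.5 against 6.60 CPM and 127 against 15.5 CPM with the hormone gene Ppy and the granule gene Chga first, and in each library 1 spot held 50% of these UMIs. The adipocyte list was at 61.2 against 27.9 CPM and 209.8 against 26.9 CPM, in stroma spots mostly from Fabp4, which endothelium and macrophages share, and without that gene the ratios were -1.17 and -0.03. Lymphatic genes were at 182 against 7.30 CPM and 41.1 against 8.135 CPM. Schwann cell genes, with S100b first, summed to 14.15 and 13.9 CPM in stroma, muscle genes to 8.425 and 14.8 CPM, and genes of unrelated tissues to 6.68 and 8.30 CPM, with no member at the level for comparison. No marker of these lists was at 0 in the stroma of both libraries, Cma1 of the mast cells and Ctrc of the acinar cells were at 0 in the one labelled KPC-shV, and the part of other cells in the stroma values was not tested.

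**Figure D3:**
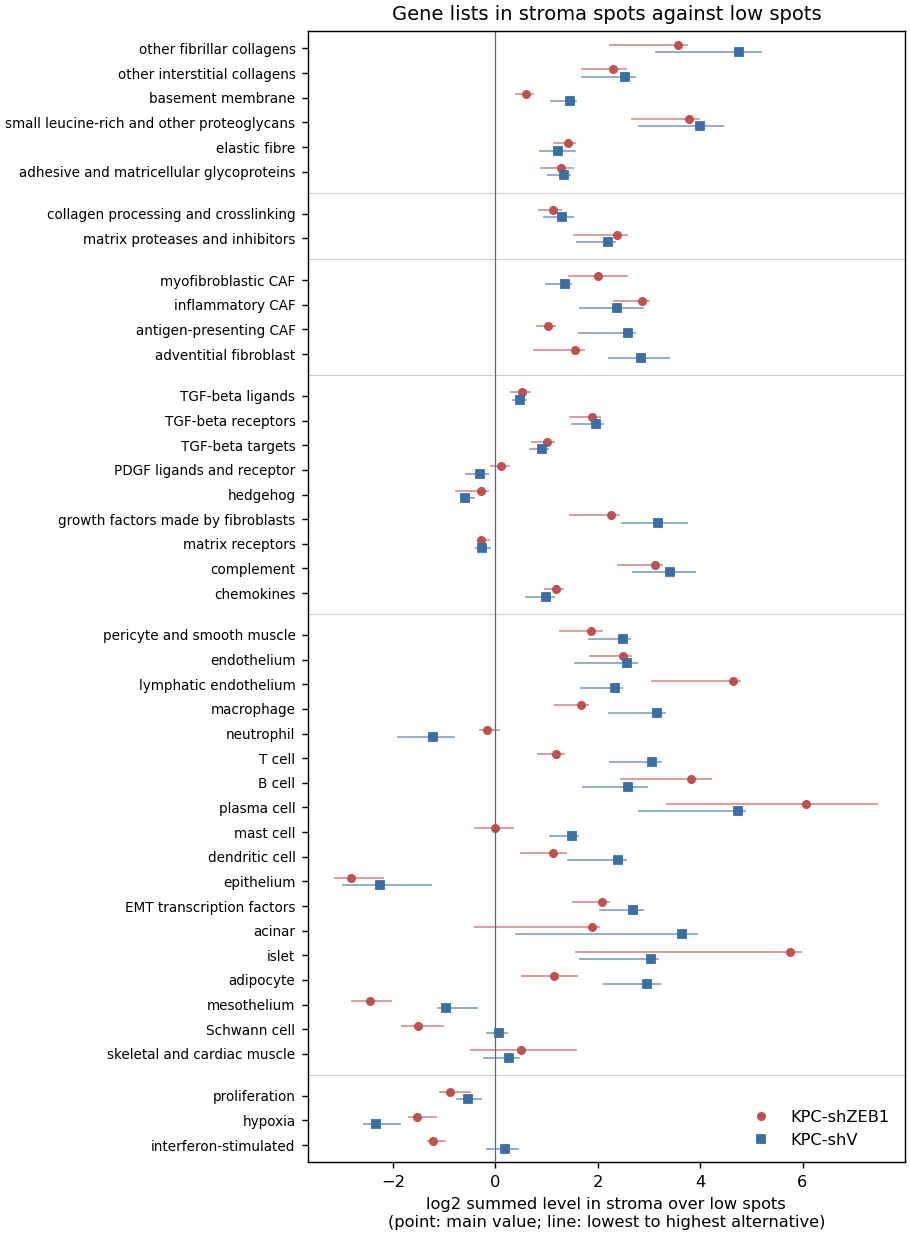
The log2 ratio of the summed level in stroma over low spots is plotted for each gene list, grouped by role, with circles for KPC-shZEB1 and squares for KPC-shV, and lines from the lowest to the highest alternative setting. Fibrillar collagens (3.56 and 4.75), proteoglycans (3.78 and 4.0) and complement (3.11 and 3.41) lie far to the right, and epithelium (-2.82 and -2.26) and hypoxia (-1.53 and -2.33) to the left.

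Programs of state other than hypoxia gave few called genes, beside 12.5% of all genes compared that were higher in stroma spots and 9.17% that were lower. Of 8 hypoxia genes 4 were lower and 0 higher. Egln3, an oxygen sensor induced by hypoxia, was at 49.3 against 296 CPM and 41.4 against 639.9 CPM, and Car9, a carbonic anhydrase, had log2 ratios of -1.81 and -2.40. Proliferation genes were lower for 1 of 4 (Top2a), with Mki67 at 195 against 346 CPM and 208 against 299 CPM. Interferon-stimulated genes were higher or lower by 2-fold in both libraries for 0 of 6, and their sum was at 1074 against 2511 CPM under the label KPC-shZEB1 and 944 against 826 CPM in the other.

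Levels were also followed along the whole range of the marker level. From the lowest to the highest of 10 equal groups of eligible spots, fibrillar collagens other than type I went from 691 to 13737.5 CPM under the label KPC-shZEB1 and from 373 to 16676 CPM in the other. Epithelial genes went from 8805 to 1145 CPM and from 7396 to 1590.0 CPM, and were still at 7001 and 7310.4 CPM in the fifth group. The inflammatory list was flat up to the fifth group (675 and 666 CPM, and 444 and 379 CPM) and reached 2589 and 792.5 CPM in the ninth and 5159 and 2046.5 CPM in the tenth. The myofibroblastic list climbed from the first group on, from 1197.5 through 1831 to 5953 CPM and from 1657 through 2286 to 5032 CPM. Both sums rest in part on 1 gene. The log2 ratio of the inflammatory list in stroma over low spots was 2.86 and 2.37 with C3 and 1.02 and 0.69 without it, that of the myofibroblastic list was 2.0 and 1.35 with Igfbp3 and 0.89 and 1.11 without it, and the 10 groups were not recomputed without these genes.

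**Figure D4:**
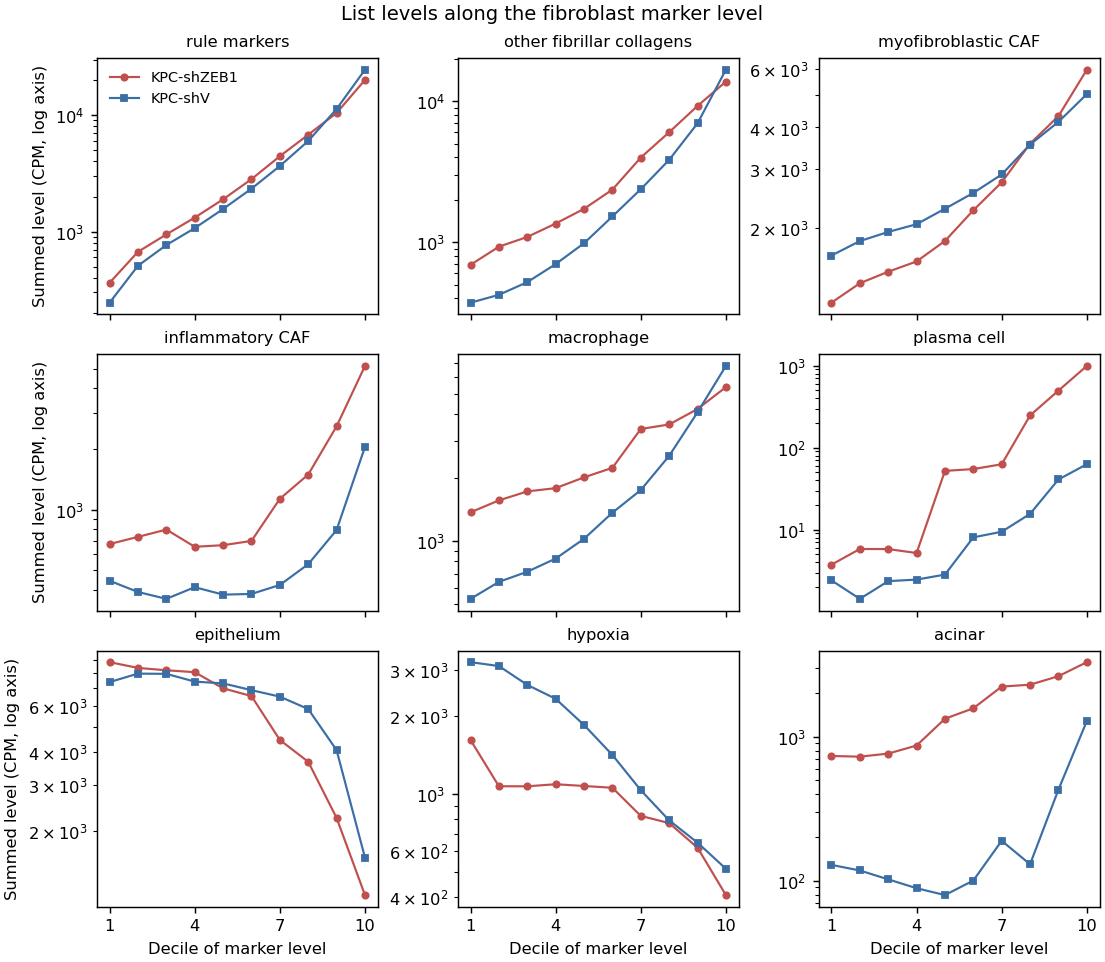
Summed levels of 9 gene lists (CPM, log axis) are drawn against the decile of eligible spots by marker level, 1 line per library, where decile 10 has the highest level. Fibrillar collagens reach 13738 and 16676 CPM in decile 10, epithelial genes drop to 1145 and 1590.0 CPM there, and the inflammatory list is flat up to the fifth decile.

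The libraries were then compared within stroma spots. Among 10325 genes with at least 10 CPM in the higher library, 264 (2.56%) were at least 2-fold higher under the label KPC-shZEB1 and 308 (2.98%) at least 2-fold lower, and the median log2 ratio was -0.09 (-0.04 for the same genes in low spots). These are differences between 1 library and 1 other, and section, tumor, depth and hairpin cannot be told apart. The 6 markers together were at 19979 CPM (95% interval 19869 to 20089.9) against 24531 CPM (24421 to 24641), which gave -0.30 on the log2 scale. This value depended on the choice of spots: it was -0.10 when both libraries were held to 1 common marker level and 0.06 when only spots of at least 20000 UMIs were taken.

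Single markers differed in direction. Col1a1 was nearly equal, at 11222 and 12182 CPM (log2 ratio -0.12), and Col1a2 was lower in the library labelled KPC-shZEB1, at 6873 and 11198 CPM (-0.70, with -0.98 to -0.29 over the settings). Dcn and Lum were higher there, with ratios of 0.80 (0.11 to 1.62 over the settings) and 1.0 (0.62 to 1.48). Pdgfra gave 0.22 and Postn -0.62, and each changed direction in at least 1 setting, as did Col1a1.

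Some basement membrane and crosslinking genes were lower in the stroma of the library labelled KPC-shZEB1, beside 2.98% of all genes compared. The basement membrane list was at 1910.3 CPM (1876 to 1945) against 4004 CPM (3960.0 to 4049), or -1.07 on the log2 scale, with -1.23 to -0.93 over the settings and -0.22 in low spots. Col4a1 (462 and 1582 CPM), Col4a2 (444 and 1174 CPM) and Nid2, which links laminin to type IV collagen (21.6 and 76.8 CPM), were the 3 of 11 at least 2-fold lower, and without Col4a1 the ratio was -0.74. Of 17 processing genes 4 were lower, the oxidases Lox, Loxl2 and Loxl3 and the lysyl hydroxylase Plod3, with ratios between -1.40 and -1.02, and 0 were higher. Tnc and Thbs1, matrix proteins of wounds and tumors, were at 121 and 383 CPM and at 839.5 and 1831 CPM. Fibrillar collagens other than type I gave -0.28, with -0.54 to 0.16 over the settings and -0.63 without Col3a1, and Col5a3 was lower (-1.19).

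Mural genes were lower there in part. Of 11 pericyte and smooth muscle genes 6 were lower, Cspg4, Mcam, Myh11, Cnn1, Des and Higd1b, and 0 higher. Among all genes compared 2.98% were lower. The sum was at 386 CPM (371 to 402) against 715 CPM (696 to 734), a ratio of -0.89 in stroma and -0.26 in low spots. Acta2 gave -0.80, Tagln -0.87 and Myl9 -0.78, short of 2-fold, and Actg2, a smooth muscle actin, was at 23.05 and 132 CPM (-2.52). Among the TGF-beta targets, Ltbp2 (114 and 351 CPM, -1.62) was lower, and the list gave -0.74 in stroma and -0.84 in low spots, so the lower level of these targets was not limited to the stroma. Timp1, an inhibitor of metalloproteinases, was at 407 and 844 CPM.

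The myofibroblastic list as a whole did not follow these genes, because 1 gene outweighed the rest. Its sum was at 5984 CPM (5923 to 6044) against 5032 CPM (4982 to 5082), or 0.25 on the log2 scale. Igfbp3 alone was at 3582 and 1515 CPM (1.24), and without it the sum was at 2402 and 3517 CPM, a ratio of -0.55. Lrrc15 was at 26.1 and 10.35 CPM (1.33), in the direction of Igfbp3. A direction for the myofibroblastic state cannot be read from these values.

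In the stroma of KPC-shZEB1, as labelled, the inflammatory list had the higher sum, at 5106 CPM (5051 to 5162) against 2040.2 CPM (2009 to 2072), a ratio of 1.32 with 0.82 to 1.87 over the settings of spot choice and scaling. C3 gave most of it, at 4627 and 1637 CPM (1.5), and without C3 the ratio was 0.25, from 479.6 and 403 CPM. Of 10 genes compared, C3 and Clec3b were at least 2-fold higher, and Il11, Lif and Cxcl1 at least 2-fold lower. Among all genes compared 2.56% were higher and 2.98% lower. Complement genes summed to 7699 and 3880.0 CPM (0.99), or 3072 and 2243 CPM (0.45) without C3. Slpi, a secreted protease inhibitor of the antigen-presenting list, was at 1630.4 and 323 CPM (2.34). The higher inflammatory sum in this library was therefore mainly one of C3. In low spots the ratio was 0.83 for the inflammatory list and -0.08 without C3. That of the complement list was 1.29 there, and 0.96 without C3. The differences of both lists were thus not limited to the stroma.

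**Figure D5:**
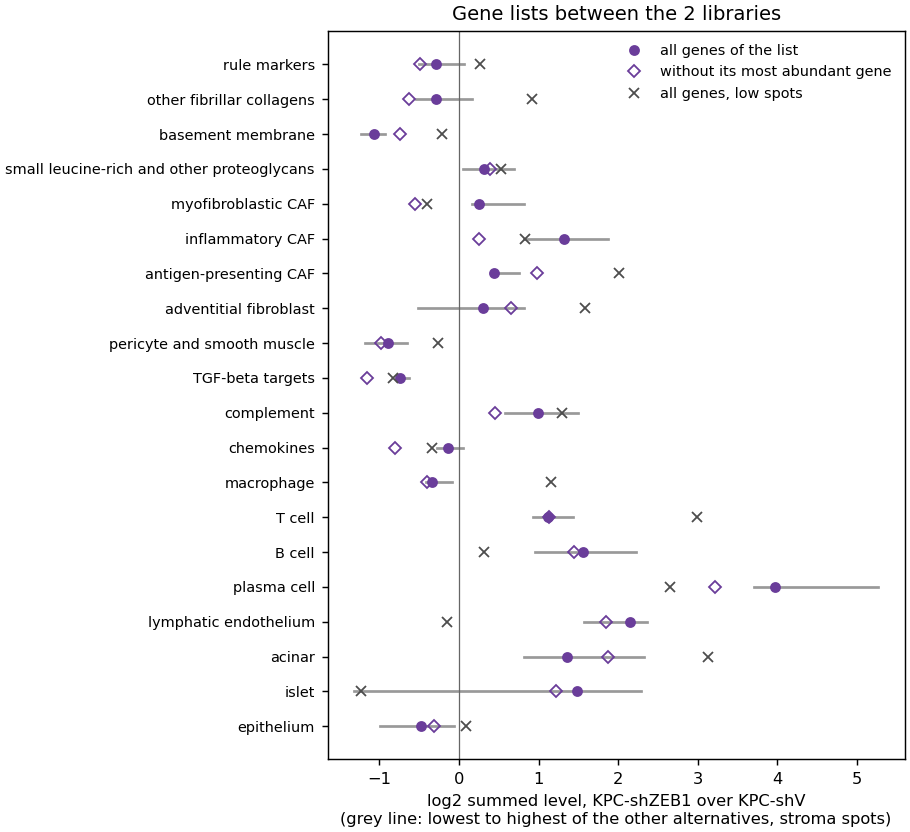
Log2 ratios (KPC-shZEB1 relative to KPC-shV) are plotted for 20 gene lists in stroma spots (filled circles), without the most abundant gene of each list (open diamonds) and in low spots (crosses), with grey lines from the lowest to the highest of the other settings. The diamond of the myofibroblastic list lies at -0.55 against its circle at 0.25, and that of the inflammatory list at 0.25 against 1.32.

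Antibody genes showed the widest gap between the libraries. Igkc, the constant region of the kappa light chain, had a median of 18133 CPM and a highest value of 171558 CPM over the stroma spots of the library labelled KPC-shZEB1, and a median of 77.8 CPM and a highest value of 56912 CPM over those of the other. Its level was 37857 and 2303 CPM (log2 ratio 4.04), although 18 of 135 and 6 of 286 spots held 50% of its UMIs. Of the 10 highest ratios, 7 belonged to this family: Ighg3 (8.81), Igkv12-89 (8.27), Igkv8-27 (6.52), Igkv1-88 (5.89), Ighg2b (5.18), Ighj1 (5.09) and Ighm (4.72). Antibody gene segments are similar in sequence and may share probes, so single members are uncertain. Jchain, which is not part of the family, was at 850.6 and 48.55 CPM, and after thinning to 10000 UMIs it had a UMI in 74.1% (65.8 to 81.2) and 12.9% (9.27 to 17.4) of stroma spots, beside 3.12% and 0.84% of low spots (85.9% and 24.8% of stroma spots unthinned). The plasma cell list gave 3.97 in stroma and 2.65 in low spots, the B cell list 1.56 and 0.32, the T cell list 1.12 and 2.99, and the neutrophil list -0.41 and -1.48. Jchain RNA was thus found in most stroma spots of 1 library and in a small share of those of the other. Among the stroma and low spots of the former library, however, the highest Igkc and Jchain values, 241347 and 5482 CPM, lay in low spots.

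Stomach-type gland genes made up the rest of the highest ratios. Tff2, a trefoil peptide of mucous glands, was at 1062 and 15.7 CPM (6.08), Gkn3 at 338 and 9.71 CPM (5.12) and Agr2, a chaperone of mucin secretion, at 81.1 and 1.66 CPM (5.61). In the library labelled KPC-shZEB1, 5 of 135 stroma spots held 50% of the UMIs of each, while after thinning to 10000 UMIs Tff2 had a UMI in 54.1% of stroma spots against 9.09% in the other library (80% and 15% unthinned), beside 45.3% and 16.1% of low spots. Without stroma spots of at least 100 CPM of gland genes (Tff2, Gkn3 and Muc6), a setting chosen after seeing the data that uses these genes themselves, the log2 ratios between libraries were 2.31 for Tff2, 0.33 for Gkn3 and 3.04 for Agr2. Of 5 lymphatic genes 4 were higher in the same library, beside 2.56% of all genes compared. Prox1, the transcription factor of lymphatic identity, was at 65.5 and 8.56 CPM (2.94). Lyve1, which macrophages share, went in the opposite direction (-1.08). Acinar genes gave 1.35 in stroma and 3.12 in low spots.

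Genes among the 10 lowest ratios had several known sources. Cxcl14, a chemokine of fibroblasts and epithelium, was at 120.2 and 621 CPM (-2.37). Fcna, a ficolin of macrophages, was at 25.6 and 167.5 CPM (-2.71). Ndufa4l2, a hypoxia-induced mitochondrial gene of pericytes, gave -1.97, and Fabp4 -1.90. Acsbg1 and Prss22 gave -1.96 and -2.17 in stroma and -2.01 and -2.06 in low spots, so their difference was of similar size outside the stroma.

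Some genes differed between libraries in opposite ways inside and outside the stroma. Ccr2, the receptor of inflammatory monocytes, was at 169 and 349.9 CPM in stroma (-1.05) but at 37.0 and 4.13 CPM in low spots (3.16). Of the library labelled KPC-shV, 243 of 286 stroma spots exceeded all of its low spots, against 0 of 135 in the other. In that other library the highest low spot reached 1663 CPM, and 131 of 135 stroma spots exceeded the low-spot median of 22.8 CPM. Macrophage genes gave -0.34 in stroma and 1.15 in low spots. Ccl17, a chemokine of dendritic cells, gave -0.64 and 2.20. Ppy gave 2.60 in stroma and -1.97 in low spots, although 1 stroma spot of each library held 50% of its UMIs, and the islet list between libraries turned from 1.48 to -1.11 without the stroma spots rich in gland genes.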

How the data were processed

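Tumor sections frozen in OCT and fixed in methanol were assayed with Visium CytAssist probes, 1 library per group. The deposited files hold raw UMI counts per spot for 19465 probe-targeted genes, which the authors made with Space Ranger 2.0.1 on mm10, per the submitters' processing notes. No mitochondrial gene is measured, probes are not comparable between genes, and doublets do not apply to spots. Gene positions came from GENCODE M21 (GRCm38), which matched 19451 features. Counts were summed over the spots of a group and scaled to CPM (Python 3.11.15, numpy 2.4.6, scipy 1.17.1). Stroma and low spots were compared for genes with at least 10 CPM in the higher spot group of each library, and the libraries for genes with at least 10 CPM in the higher library, and called genes differ at least 2-fold. With 1 library per group no test was run. Counting intervals (95%) are exact Poisson for levels, conditional binomial for ratios and Clopper-Pearson for shares of spots, and the scripts were tested on simulated counts.

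The members and gene lists were chosen with earlier results of these data known. Genes named are the 6 markers, Zeb1 and the listed genes, the 15 highest and 10 lowest ratios of stroma over low spots by the smaller of both libraries, the 10 highest and 10 lowest between libraries with 1 direction under every alternative, and the 5 highest and 5 lowest differences between stroma and low spots of the latter ratio, with at least 50 CPM; some genes that this rule or the lists name are not reported here. Ly6c1, C1s1, Krt18, Twist2, Ccnb1 and Isg15 are not among the features. Alternatives changed the share of spots, the marker weights, the UMI and acinar limits and the scaling, and 4 were added after the data were seen: stroma spots with little normal pancreas (under 0.1% of UMIs from acinar and islet genes), without the 10% richest in antibody genes, without gland genes (100 CPM or more), and lists without their most abundant gene.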

Additional observations from a re-analysis of the deposited data

Results flagged for a closer look

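For 4 genes the ratio of stroma over low spots had opposite signs in the libraries; with 1 library per group the difference was not tested. The log2 ratio in the library labelled KPC-shZEB1 minus that in the other was 4.65 for Tff2 (3.23 and -1.42) and 3.34 for Agr2 (1.30 and -2.04), both genes of mucous glands whose stroma UMIs came to 50% from 5 spots of the former library. Without stroma spots rich in gland genes, a choice that used Tff2 itself, the ratios in that library were -1.995 and -1.18, so the signs were no longer opposite. The difference was -3.13 for Ms4a8a (-1.78 and 1.36), a membrane protein gene, and -2.90 for Efemp1 (-1.73 and 1.17), which encodes a fibulin-like matrix protein.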

How the results depend on the processing

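Of 4465 alternative values of 276 log2 ratios of single genes and lists, 2299 stayed within the counting interval of the main ratio, 2150 lay outside it and 16 turned the direction of a ratio of at least 2-fold; turns of smaller ratios are not counted apart. The 1266 genes higher in stroma spots became 574 at 4-fold, 525 with at least 50 CPM and 2527 with a minimum of 10 UMIs in place of a level, and the 931 lower genes 486 with the top 20% of spots, 218 at 4-fold and 533 with 50 CPM. Between libraries the 264 higher genes became 79, 95 and 650 at 4-fold, 50 CPM and 10 UMIs, and the 308 lower genes 22, 117 and 1267, with 529 after thinning to 10000 UMIs and 581 with little normal pancreas. The log2 ratio between libraries of the 6 markers (-0.30) was -0.36 with the top 5%, -0.12 with the top 20%, -0.10 at a common marker level, -0.15 with equal marker weights, 0.056 with at least 20000 UMIs, -0.38 with no minimum, -0.28 with acinar UMIs under 0.5%, -0.21 with median-of-ratios scaling, -0.50 as a mean of spots, -0.50 after thinning, -0.075 with little normal pancreas, -0.28 without antibody-rich spots, -0.26 without gland-gene spots and -0.50 without Col1a1. For the myofibroblastic list (0.25) the values in that order were 0.47, 0.18, 0.40 and 0.18, then 0.31 for the acinar limit, 0.34, 0.18 and 0.17 for scaling, mean and thinning, 0.81 with little normal pancreas, 0.35 without antibody-rich spots and -0.55 without Igfbp3. For the inflammatory list (1.32) they were 0.82, 1.59, 1.38, 1.42, 1.87, 1.22, 1.36, 1.41, 1.12, 1.11, 1.11, 1.25 and 1.12 in the order of the markers, and 0.25 without C3. Directions of these 16 turned for the acinar list in KPC-shZEB1 (-0.41 with little normal pancreas), the islet list between libraries (-1.32 with little normal pancreas, -1.11 without gland-gene spots), Lypd8 between libraries (-0.047, -0.25 and -0.074 with the top 20%, equal weights and 20000 UMIs), Ighg3 in KPC-shV against all other spots (-0.039), Tff2, Agr2 and Gkn3 in KPC-shZEB1 without gland-gene spots (-1.995, -1.18 and -0.72) and Gkn3 in KPC-shV with little normal pancreas (-0.96). Without their most abundant gene, the mast cell list turned in KPC-shV (-0.82), the adipocyte list in both libraries (-1.17 and -0.035), and the mesothelial (2.27) and Schwann cell lists (1.05) in KPC-shZEB1. Spots with little normal pancreas and without gland genes were limited in stroma but not in low spots, by acinar and islet genes and by Tff2, Gkn3 and Muc6, so the turns of the acinar list, Tff2 and Gkn3 in KPC-shZEB1 follow from the choice of spots. For the others the cause was not tested. No paired analysis was possible because each group has 1 library. Depth limits single spots most in the stroma of KPC-shV (a median of 22856 UMIs) and summed levels most in the stroma of KPC-shZEB1 (6290622 UMIs against 7827677).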

Other observations

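Further genes at least 2-fold higher in stroma spots of 1 library and at least 2-fold lower in those of the other, among genes at the level for comparison in both libraries, were found after their values were seen. There were 7 in all, and beside Tff2, Efemp1 and Ms4a8a they were Ecrg4 (log2 ratios of -1.46 for KPC-shZEB1 and 2.13 for KPC-shV), Gbp4, an interferon-induced GTPase gene (-1.06 and 1.11), Ly6d (1.06 and -1.42) and Ttr, which encodes transthyretin (1.99 and -1.39).

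Within stroma spots the inflammatory list ran with the macrophage list, with Spearman's correlations of 0.49 over 135 spots and 0.22 over 286, and against the epithelial list, at -0.44 and -0.35. The plasma cell list ran with the inflammatory one under the label KPC-shZEB1 (0.36), without a counterpart in the other library (-0.01). These values share the sections and the total of each spot and are descriptions only.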
